A study of Homo sapiens with 10 samples.

Results

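Silent baits are promoter-containing restriction fragments whose genes gave almost no RNA reads in either cell type examined. Promoter capture Hi-C (PCHi-C), which pulls promoter fragments and the DNA ligated to them out of a Hi-C library, and RNA-seq were made from human H9 (WA09) embryonic stem cells (ESCs), an established pluripotent line, and from neuroectodermal cells (NECs) derived from the same H9 line and collected at day 7. Neither cell type carried a transgene or an engineered allele, and every sample came from this 1 line. Each assay had 2 biological replicates per cell type. The RNA libraries of each cell type shared a sequencing lane that the other cell type was not in, so cell type and lane cannot be told apart in the counts. A bait was taken as silent when at least 1 annotated gene started in it and every gene starting there had 3 or fewer reads in each of the 4 RNA libraries. Of the 21833 baits with a listed contact, 18038 held a gene start, and 3843 of these were silent; silent baits were thus 21.3% of baits with a gene start. The remaining 14195 are called other baits here. Since only fragments with at least 1 call in some list were known as baits, promoters with no call anywhere were not seen.

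A promoter without RNA is not without neighbours in the nucleus. Promoters meet distal DNA by looping and also by simple proximity along the fibre, genes in the same chromatin state tend to gather, and in pluripotent cells many developmental promoters are held by Polycomb proteins, which keep genes off and can bring them together. Promoters in vertebrates fall broadly into CpG-rich ones, typical of housekeeping and developmental genes, and CpG-poor ones, typical of genes used in a single tissue. The other end of a contact is called a promoter-interacting region (PIR), and a call is a bait and PIR pair with a CHiCAGO score of at least 12, where the score weighs the read pairs seen against those expected from distance and technical noise.

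The 3843 silent baits held 4075 gene starts. Of these, 2101 belonged to protein-coding genes and 1629 to long noncoding RNA genes. A protein-coding gene started in 53.2% of silent baits and in 90.7% of other baits. No read at all was counted for any gene of 2229 silent baits. The whole set of silent baits took between 871 and 1508 reads per library out of totals of 19234087 to 25356382 reads, and 3 reads corresponded to between 0.118 and 0.156 CPM (counts scaled to the library total). RNA was selected by its poly(A) tail, so a gene whose transcripts lack the tail, as most histone genes do in dividing cells, can look silent by this rule without being so. Counting did not use the strand. The labels held against marker genes: POU5F1, the pluripotency factor, had 27972 and 35548 reads in ESCs and 663 and 2749 in NECs, and PAX6, a neuroectoderm factor, had 31 and 28 in ESCs and 1848 and 1304 in NECs. The 5 listed pluripotency genes together were at 201 and 289 CPM in NECs against 2400 and 2484 CPM in ESCs, the 6 neuroectoderm genes at 405 and 306 against 183 and 130 CPM, the 5 neural crest genes at 216 and 135 against 79.2 and 73.0 CPM, and the 5 mesendoderm genes at 3.27 and 2.55 against 28.8 and 81.8 CPM. Most of the pluripotency sum in NECs was LIN28B, at 151 and 144 CPM there and 149 and 176 CPM in ESCs. The NEC replicates differed from each other, and the part of cell mixture in the contacts was not tested.

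A few gene starts show what silent promoters looked like and return in the results below: those of the silent baits with the most contacts in ESCs (PPYR1) and with the highest scores (ADAM30), a histone gene with the most NEC-only contacts (HIST1H4L), a noncoding gene with the most ESC-only contacts (RP11-481C4.1), the leading olfactory receptor (OR4K2) and the leading HOX gene (HOXC9). Each line gives 300 bases of the GRCh37 reference, 5′ to 3′ on the strand of the gene, from 250 bases before the annotated start to 50 bases from it on, with every CG pair in capitals.
PPYR1: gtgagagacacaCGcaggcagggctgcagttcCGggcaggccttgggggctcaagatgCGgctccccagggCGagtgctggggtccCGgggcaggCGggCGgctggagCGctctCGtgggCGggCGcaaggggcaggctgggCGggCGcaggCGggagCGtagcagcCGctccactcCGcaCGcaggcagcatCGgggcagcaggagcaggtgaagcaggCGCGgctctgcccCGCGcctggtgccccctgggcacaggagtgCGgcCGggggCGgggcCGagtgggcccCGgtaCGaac
ADAM30: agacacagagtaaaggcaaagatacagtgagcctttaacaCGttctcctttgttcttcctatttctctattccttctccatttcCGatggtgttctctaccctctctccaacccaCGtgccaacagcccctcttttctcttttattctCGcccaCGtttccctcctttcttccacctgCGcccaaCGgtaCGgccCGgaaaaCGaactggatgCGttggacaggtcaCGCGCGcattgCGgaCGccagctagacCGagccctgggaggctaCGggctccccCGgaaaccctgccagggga
HIST1H4L: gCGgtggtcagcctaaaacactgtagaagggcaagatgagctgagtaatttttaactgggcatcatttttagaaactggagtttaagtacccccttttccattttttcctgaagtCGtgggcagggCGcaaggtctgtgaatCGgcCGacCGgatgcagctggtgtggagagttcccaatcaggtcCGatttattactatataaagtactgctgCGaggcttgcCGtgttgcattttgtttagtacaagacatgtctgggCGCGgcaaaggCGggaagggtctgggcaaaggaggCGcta
RP11-481C4.1: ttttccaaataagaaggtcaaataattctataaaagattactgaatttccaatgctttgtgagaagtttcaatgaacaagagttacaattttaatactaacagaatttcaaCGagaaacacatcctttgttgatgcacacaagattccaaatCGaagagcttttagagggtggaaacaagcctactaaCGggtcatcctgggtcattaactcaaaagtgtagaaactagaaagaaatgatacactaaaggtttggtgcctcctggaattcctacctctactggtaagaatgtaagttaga
OR4K2: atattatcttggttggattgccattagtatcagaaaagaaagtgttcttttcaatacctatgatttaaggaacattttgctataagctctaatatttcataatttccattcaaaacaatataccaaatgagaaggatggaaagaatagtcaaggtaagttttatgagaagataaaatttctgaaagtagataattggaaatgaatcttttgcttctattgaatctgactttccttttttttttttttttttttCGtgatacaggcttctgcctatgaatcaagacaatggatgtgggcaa
HOXC9: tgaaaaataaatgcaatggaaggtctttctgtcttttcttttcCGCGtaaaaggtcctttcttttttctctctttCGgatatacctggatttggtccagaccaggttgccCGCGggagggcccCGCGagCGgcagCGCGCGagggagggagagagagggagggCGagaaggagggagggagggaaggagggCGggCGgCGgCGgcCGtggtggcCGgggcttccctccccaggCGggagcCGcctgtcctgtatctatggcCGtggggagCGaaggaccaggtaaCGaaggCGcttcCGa
PPYR1, a receptor for pancreatic polypeptide, starts on chromosome 10 and its window is chr10:47083284-47083583 on the plus strand, with 29 CG pairs. ADAM30, a testis metalloproteinase gene, lies at chr1:120439069-120439368 on the minus strand, with 19 CG pairs. HIST1H4L, a gene for histone H4, lies at chr6:27841240-27841539 on the minus strand and has 13. RP11-481C4.1, a long noncoding RNA gene, lies at chr17:49119635-49119934 on the plus strand and has 3. OR4K2, an odorant receptor gene, lies at chr14:20344141-20344440 on the plus strand and has 1, whereas HOXC9, a homeobox gene that patterns the trunk, has 25 at chr12:54388429-54388728 on the plus strand. The letters TATAAA occur on the gene's strand in the HIST1H4L and RP11-481C4.1 windows. For 148 of the 379 olfactory receptor genes of the table the annotated start was the ATG of the coding sequence, so for these the window is not the true promoter.

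Most silent promoters were CpG-poor. The median ratio of observed to expected CpG in the 300-base window was 0.217 over the 4075 gene starts in silent baits and 0.732 over the 18148 in other baits, and the median GC content was 46.3% against 61.0%. Using a ratio of at least 0.6 and a GC content of at least 50% to call a window CpG-rich, 384 gene starts in silent baits (9.42%) and 59.1% of those in other baits were CpG-rich, with 49.98% over all. TATAAA, searched on the gene's strand, was in the windows of 625 silent gene starts (15.3%), of 5.19% of those in other baits and of 7.05% of all. On either strand the shares were 21.6%, 8.19% and 10.7%. These are shares of windows that hold the letters, and a match is not a bound site.

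**Figure D1:**
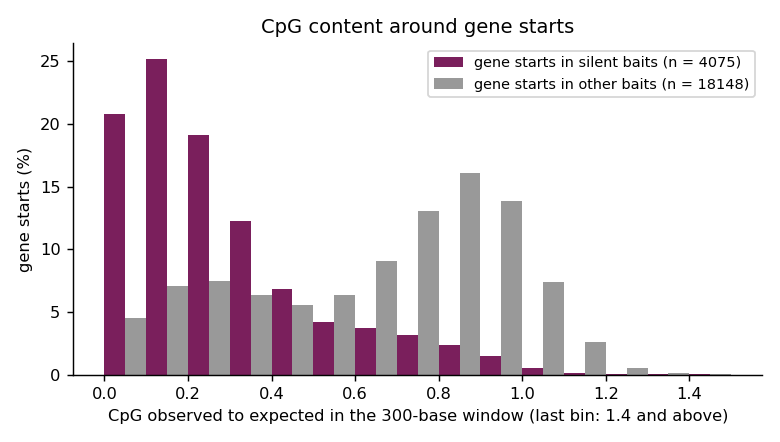
Share of gene starts (y axis, %) by the ratio of observed to expected CpG in the 300-base window (x axis, bins of the ratio), for the 4075 gene starts in silent baits and the 18148 in other baits. Silent gene starts pile up at low ratios (median 0.217), those in other baits at high ones (median 0.732), and the silent ones have a thin upper tail.

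Silent baits were not free of contacts. In the merged calls, made by the authors from both replicates of a cell type, 75.4% of silent baits had at least 1 PIR on their own chromosome in ESCs and 77.2% in NECs, where the shares of all baits with a gene start were 81.6% and 83.4%. A PIR was listed in both merged lists for 2498 silent baits, in ESCs only for 400, in NECs only for 469, and in neither for 476, which were known as baits only from single replicates. Among baits with a PIR the median was 3 PIRs for silent baits and 4 for other baits in each merged list, and over all baits of a group, those without a PIR included, the means were 3.77 against 5.07 in ESCs and 3.65 against 5.16 in NECs. In ESCs 39 silent baits (1.01%) had 30 or more PIRs, against 194 other baits (1.37%). In NECs 32 silent baits (0.833%) did, against 204 other baits (1.44%).

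**Figure D2:**
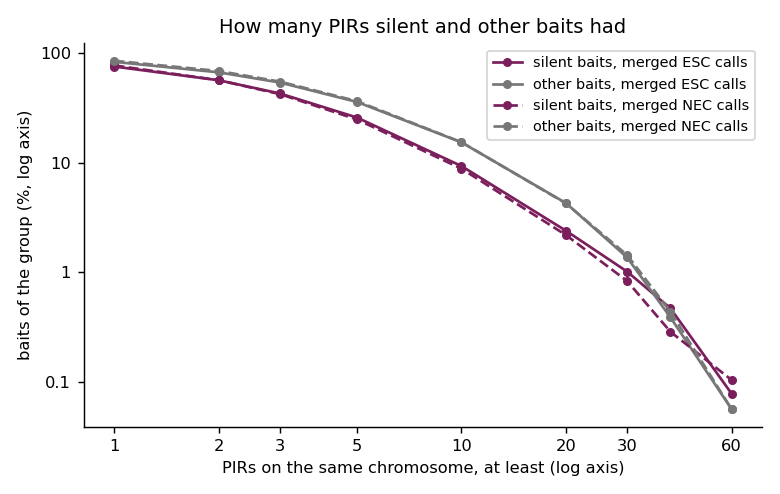
Share of baits (y axis, %, log axis) with at least the number of same-chromosome PIRs on the x axis (log axis), for silent and other baits in the ESC merged list (solid) and NEC merged list (dashed). The silent curves start at 75.4% and 77.2% for 1 PIR and lie below those of other baits up to 30 PIRs, which 39 and 32 silent baits reached. In the far tail, where few baits are left, they cross. At 60 or more PIRs the shares are 0.0781% (silent) against 0.0564% (other) in ESCs and 0.104% against 0.0564% in NECs.

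Single libraries showed small gaps in whether a bait had any PIR and in how many. Silent baits had at least 1 PIR in 86.8% (ESC replicate 1), 88.8% (ESC replicate 2), 88.8% (NEC replicate 1) and 86.8% (NEC replicate 2) of cases, against 88.2%, 89.1%, 89.0% and 87.8% of other baits. The silent share was lower in 4 of 4 libraries, with a mean difference (silent minus other) of -0.716 ± 0.549 percentage points (SD, n = 4 libraries). The ranges of the groups overlapped. Mean PIRs per bait were 4.11, 3.74, 4.25 and 3.14 at silent baits and 4.55, 4.11, 4.84 and 4.06 at other baits, a difference of -0.579 ± 0.240 (SD, n = 4), again lower in 4 of 4 libraries, with overlapping ranges. The median over baits with a PIR was lower by 1 PIR in 3 of 4 libraries and equal in NEC replicate 2. NEC replicate 2, with the fewest calls (81168 against 86429 to 100305), had the lowest silent mean. The two-sided exact permutation test by sign changes over the 4 libraries gave p = 0.125 for both measures, the smallest value that 4 libraries allow, so no such comparison could pass 0.05.

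The median contact of silent baits reached farther. The median distance to a PIR was 444, 456, 508 and 428 kb in the 4 libraries (ESC replicates 1 and 2, then NEC replicates 1 and 2) for silent baits and 348, 358, 400 and 365 kb for other baits. Every silent value was above every value of the other baits, and the difference within libraries was 91.2 ± 19.9 kb (SD, n = 4 libraries; exact permutation test, p = 0.125). The merged calls had shorter medians: 244 kb against 185 kb in ESCs and 243 kb against 211 kb in NECs. Short contacts did not follow 1 direction. Calls within 50 kb were 12.1% at silent baits against 15.7% at other baits in the ESC merged list, but 14.6% against 12.8% in the NEC merged list. In single libraries the silent share was lower except in NEC replicate 2 (6.68% against 4.56%).

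Silent baits had silent partners more often than other baits did. Where the PIR was itself a bait with a gene start, that partner was silent in 38.7% of cases for silent baits and 12.5% for other baits in the ESC merged list, and in 35.6% against 11.1% in the NEC merged list. In the single libraries the silent-partner share was 37.9%, 38.4%, 36.4% and 30.9% for silent baits and 13.7%, 13.9%, 13.9% and 10.6% for other baits, in the same order as above. The groups did not overlap, although NEC replicate 2 stood below the other 3 libraries for silent baits, and the difference was 22.9 ± 1.94 points (SD, n = 4; exact permutation test, p = 0.125). Silent genes also lay near each other: of the baits with a gene start within 500 kb, 39.2% were silent around silent baits and 16.7% around other baits. Among called partners within 500 kb, 39.1% in ESCs and 36.2% in NECs were silent for silent baits, not above that 39.2%. For other baits these shares were 11.8% and 10.5%. Whether contacts favoured silent partners beyond the make-up of the neighbourhood was not tested. Counting only partners farther than 500 kb, the shares were 37.2% and 17.0% in ESCs and 33.1% and 13.6% in NECs, and the difference over the 4 libraries was 16.1 ± 1.22 points. Without the baits of the 16 listed gene families (histone and regulator baits kept) the difference at any distance was 10.5 ± 0.878 points (exact permutation test, p = 0.125), so much of it came with those families. Silent baits with a protein-coding gene had a silent-partner share 17.4 ± 1.03 points above that of the silent baits without one (42.6% against 25.2%, means of 4 libraries).

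**Figure D3:**
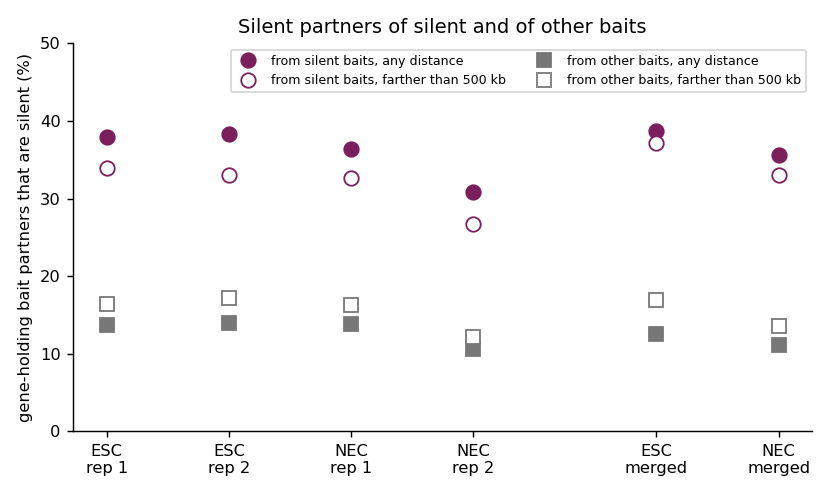
Share of gene-holding bait partners that are silent (y axis, %), for silent baits (circles) and other baits (squares), in each of the 4 libraries and the 2 merged lists (x axis). Filled symbols take partners at any distance and open symbols those farther than 500 kb, and in each column the silent baits lie above the other baits (30.9 to 38.4% against 10.6 to 13.9% in single libraries).

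Most PIRs of silent baits were not known baits, and whether these fragments held a gene start was not tested. In the ESC merged list 65.9% of their PIRs were fragments not known as baits, 12.1% (1749) were silent baits, 13.0% (1889) were baits with a gene at 1 CPM or more in every RNA library, 6.06% were baits of genes between those levels and 2.91% were baits without an annotated start. The NEC calls gave 67.5%, 10.7% (1500), 13.2% (1853), 6.15% and 2.42%. Silent baits thus had more calls to expressed baits than to silent ones in both lists, where 10596 baits were expressed and 3843 silent. The calls of other baits went to expressed baits in 19.5% of cases in ESCs and 20.7% in NECs. They went to silent baits in 3.58% and 3.24%.

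The limit of 3 reads was not a sharp border. Silent-partner shares in ESCs were 49.1% for the 2229 baits with 0 reads throughout, 26.0% for the 845 whose highest count was 1, 24.5% for the 457 at 2 and 21.1% for the 312 at 3, and 18.1% and 20.9% for the 266 and 194 baits just outside, at 4 and 5. In NECs the values were 45.0%, 23.6%, 24.3%, 20.3%, 18.2% and 12.7%. The share was highest at the baits without a single read, and the baits with a highest count of 3 and of 4 were close to each other. The share with a PIR in ESCs also ran on across the limit, at 77.6% for a highest count of 3, 73.3% for 4 and 80.9% for 5.

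Silent promoters rich in CpG had more contacts than CpG-poor ones. The 356 silent baits with a CpG-rich start had 6.10 PIRs on average in the ESC merged list and 5.57 in the NEC merged list, and the 3487 without had 3.53 and 3.45. Library means were 5.69, 5.15, 5.77 and 4.27 against 3.94, 3.60, 4.10 and 3.03. The CpG-rich values lay above all the CpG-poor ones, and the difference was 1.55 ± 0.221 PIRs (SD, n = 4; exact permutation test, p = 0.125). HOX and histone genes, described below, are CpG-rich or have very many PIRs, and with their baits left out of both groups the difference was 1.13 ± 0.260 PIRs with the same sign in 4 of 4 libraries. CpG-rich silent baits met silent partners less often, with a difference of -12.3 ± 2.09 points (SD, n = 4 libraries; exact permutation test, p = 0.125). A further 817 silent baits (21.3%, against 9.96% of other baits) lay wholly inside the body of a gene at 1 CPM or more in every library, and these differed from the silent baits elsewhere by -0.574 ± 0.143 PIRs and by -13.1 ± 0.630 points in the silent-partner share (SD, n = 4; exact permutation test, p = 0.125 for each).

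Several of the listed families were nearly all silent. Olfactory receptors, which detect odorants in the nose and sit in large clusters, were the biggest group, with 305 of 315 gene starts in silent baits where the share over all baits with a gene start was 21.3%. All 35 epidermal differentiation genes, which build the skin barrier, all 25 defensins, which are antimicrobial peptides, and all 9 type I interferons were silent too. Keratin and keratin-associated genes followed with 116 of 130, taste receptors with 18 of 23, cancer-testis genes, which are restricted to the germ line and tumours, with 15 of 20, and milk and saliva genes with 8 of 11. Mixed groups were the cytokines (45 of 75), leukocyte receptors (43 of 77) and the CYP and UGT enzymes that modify drugs and steroids (20 of 49). Both placental hormone gene starts were in 1 silent bait. Smaller shares came from genes named LINC (17 of 36), microRNA genes (5 of 21) and small nuclear and nucleolar RNA genes (1 of 7), and short RNAs are poorly captured by this kind of library.

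Families differed widely in how often the promoters they met were silent. The 300 silent olfactory receptor baits had 3.84 PIRs on average in the ESC merged list and 3.04 in the NEC merged list, and 487 of their 612 gene-holding partners in ESCs and 341 of 441 in NECs were silent. In single libraries the means were 4.56, 4.63, 4.22 and 3.01. The epidermal differentiation baits had 97 silent partners of 101 in ESCs and 90 of 92 in NECs, and keratin baits had 200 of 242 and 152 of 173. In contrast, cytokine baits had 16 silent partners of 50 in ESCs and 19 of 49 in NECs, leukocyte receptor baits 32 of 77 and 24 of 63, and type I interferon baits 5 of 16 and 3 of 9. Cancer-testis baits had almost no calls in the merged lists (means of 0.2 and 0.4), although single libraries gave 1.8 to 2.47 on average.

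**Figure D4:**
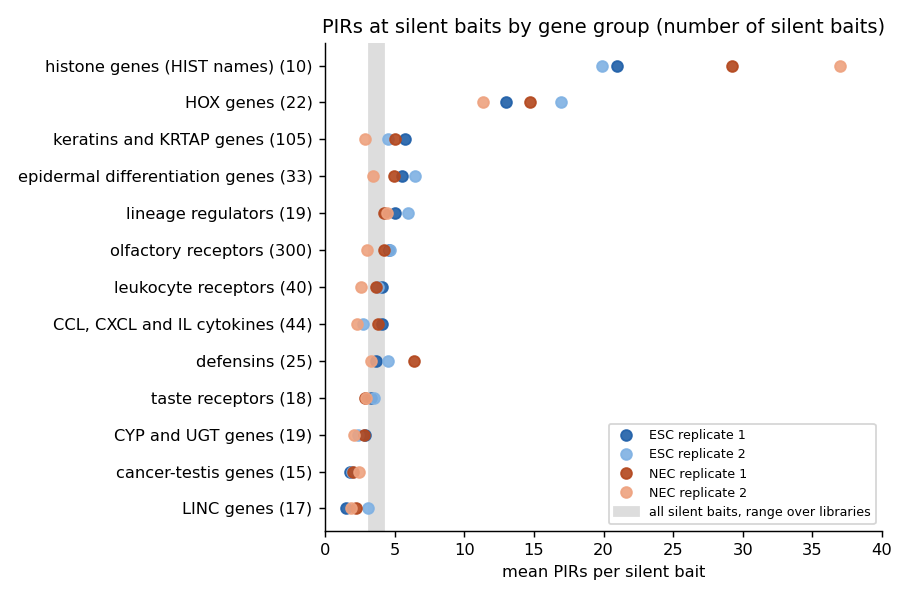
Mean same-chromosome PIRs per silent bait (x axis) for each gene group with at least 10 silent baits (y axis, number of silent baits in parentheses), with 1 point for each of the 4 libraries and a grey band for the range of all silent baits over libraries. Histone and HOX baits lie far to the right of the band (19.9 to 37.0 and 11.3 to 16.9 PIRs), and the other groups lie in it or nearer to it.

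The leading bait of each family shows how far members vary. OR4K2 had 32 PIRs in the ESC merged list and 38 in the NEC merged list, and 18, 9, 19 and 14 in the single libraries, which overlap. KRT84, a hair keratin, had 42 and 33, with 28, 23, 23 and 11 in single libraries, and all 4 libraries shared 6 of its calls. DEFB136, a beta-defensin, had 13 and 30, with 18, 14, 29 and 8. The 2 NEC replicates of DEFB136 fell on either side of both ESC replicates. The bait shared by LCE2C and LCE2B, late cornified envelope genes, had 11 and 15 in the merged lists but 0, 32, 22 and 0 in the single libraries, so 1 replicate of each cell type made them. CCL24, a chemokine, had 28 and 27 PIRs, SIGLEC9, a receptor of sialic acids on leukocytes, 18 and 18, TAS2R38, a bitter taste receptor, 9 and 6, LINC00336 12 and 13, and MAGEA4, a cancer-testis antigen, 2 and 1. CYP26C1, which breaks down retinoic acid, had 12 and 2, with 13, 7, 1 and 6 in single libraries, where both ESC values were above both NEC values.

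HOX genes, which give cells their position along the body axis, were the listed family with the most contacts per silent bait. Of 39 HOX gene starts in baits, 24 were in 22 silent baits, all of which had PIRs in both merged lists, with means of 20.1 in ESCs and 19.0 in NECs. The means in single libraries were 13.0, 16.9, 14.7 and 11.3, and the cell types overlapped. A CpG-rich start was present in 17 of the 22. The HOXC baits stood highest, from 26 to 64 PIRs in the ESC merged list, and the HOXD baits ranged from 5 to 18. HOXC9 had 64 (ESC) and 66 (NEC) PIRs in the merged lists (40, 53, 46 and 26 in the single libraries), and 12 of its calls were in all 4, including the SMUG1 bait at 188 kb and the fragment next to it on chromosome 12 (chr12:54583081-54591267), which scored 39.57 in ESCs and 42.26 in NECs. Of the gene-holding partners of silent HOX baits, 82 of 138 in ESCs and 72 of 121 in NECs held a HOX gene. The HOX share was lower in single libraries, at 35.0%, 54.9%, 42.9% and 38.0%.

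Silent baits with histone genes also had many contacts, and more in the NEC lists than in the ESC lists. This group was formed after its values were seen, and as their transcripts lack poly(A) tails, low counts do not show that these genes were off. Of 64 histone gene starts in baits, 14 were in 10 silent baits, with means of 19.6 PIRs in the ESC merged list and 31.9 in the NEC merged list. The single libraries had 21.0 and 19.9 in ESCs and 29.2 and 37.0 in NECs, which did not overlap, and 7 of the 10 baits had more PIRs in both NEC replicates than in both ESC replicates, where 13.5% of all baits with a gene start did. Of their gene-holding partners, 135 of 145 in ESCs and 207 of 211 in NECs held a histone gene. HIST1H4L had 26 and 27 PIRs in the ESC libraries and 56 and 64 in the NEC libraries, at a median distance of 1583 kb in the ESC merged list and 1607 kb in the NEC merged list. HIST1H1T, a testis linker histone, had 8 and 13 against 19 and 54, and HIST1H2AB, a gene for H2A, 43 and 36 against 59 and 54. HIST1H4G, in the same cluster, had 37 and 37 against 39 and 43, a small gap. HIST1H2AB had 22 calls in all 4 libraries, the most of any silent bait, followed by ADAM30 with 20 and HIST1H4L with 15.

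Regulators of later lineages were at the floor about as often as all genes of the table, noncoding ones included. Among gene starts in baits, 19 of 65 regulators (29.2%) were in silent baits, where 4075 of all 22223 gene starts were. Protein-coding gene starts numbered 2101 in silent baits and 14850 in other baits. Of 68 listed lineage regulators, 23 (33.8%) had 3 or fewer reads in all 4 libraries, where 33.7% of all genes of the table did, and 19 of the 23 lay in silent baits; MYOG, FEV, GFI1B and SOHLH1 shared a bait with a gene that had more reads. The 19 baits had means of 7.42 PIRs in the ESC merged list and 5.63 in the NEC merged list, and 5.05, 5.95, 4.21 and 4.47 in the single libraries. MYOD1, which drives muscle fate, led with 31 and 24 PIRs and 15, 10, 10 and 12 in the single libraries, where the cell types overlapped. A fragment on chromosome 11 (chr11:17620531-17626820), 120 kb from the MYOD1 bait, scored 31.94 in ESCs and 33.75 in NECs and was called in all 4 libraries. NKX2-2, which acts in ventral neural tube and pancreas, had 19 and 21 PIRs, and CDX1, an intestinal homeobox gene, 10 and 15. FOXE1, a thyroid factor, had 13 and 11. FIGLA, an oocyte factor, had 6 and 7, and its contact with the VAX2 bait at 112 kb was in all 4 libraries with merged scores of 38.74 and 35.29. TBX5, a heart and forelimb factor, had 9 and 9, with 3 and 2 in the ESC libraries and 9 and 6 in the NEC libraries. NOBOX, an oocyte factor, and POU1F1, a pituitary factor, had none in either merged list.

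Some regulators had fewer PIRs in the NEC merged list than in the ESC merged list. Of the 19 regulator baits, 5 had more PIRs in both ESC replicates and 2 in both NEC replicates. Over all baits with a gene start these shares were 12.6% and 13.5%. The baits below were picked for their values, and the single libraries of PDX1 and PTF1A did not separate the cell types. POU4F3, which is needed by inner ear hair cells, had 18 PIRs in the ESC merged list and 3 in the NEC merged list. The single libraries had 12 and 14 in ESCs and 1 and 7 in NECs, without overlap, and 5 calls were in both ESC replicates and neither NEC replicate. One of these ESC-only calls of POU4F3 joined it to the bait of HAND1, a heart factor gene, 8140 kb away, with a merged score of 13.18. PDX1, the pancreas factor, had 12 and 8, with 5 and 9 in ESCs and 0 and 9 in NECs, and its 3 ESC-only calls included the GSX1 bait at 125 kb, which nevertheless scored 14.34 in the NEC merged list. PTF1A, another pancreas factor, had 5 and 1 in the merged lists but 5 and 8 in the ESC libraries and 5 and 2 in the NEC libraries, with 3 ESC-only calls, of which 1 reached the bait of KIAA1217 at 498 kb and 1 the bait of COMMD3 and BMI1 at 881 kb, all genes expressed in both cell types. The NKX2-1 bait, not on the list but named for its ESC-only calls, had 26 and 25 PIRs in the merged lists, 16 and 12 in the ESC libraries and 11 and 10 in the NEC libraries, and 6 ESC-only calls, among them the PAX9 bait at 138 kb. Over the 19 regulators, 18 calls were ESC-only and 4 were NEC-only, and POU4F3, PDX1 and PTF1A held 5, 3 and 3 of the 18. Of the pairs of all baits with a gene start, 2.59% were ESC-only and 2.6% NEC-only. The matching shares for the regulators were not calculated.

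Replicated differences between the cell types were few at silent baits. Of the 45689 pairs of silent baits and PIRs in any single library, 1112 (2.43%) were in both ESC replicates and neither NEC replicate, where 2.59% of the pairs of all baits with a gene start were. The reverse pattern, both NEC replicates and neither ESC replicate, held for 872 (1.91%) where the share over all was 2.6%. All 4 libraries shared 1053 pairs (2.30%), where the share over all was 3.06%. ESC-only calls lay in 762 silent baits and NEC-only calls in 625, and 145 (13.0%) of the ESC-only and 126 (14.4%) of the NEC-only calls were still among the merged calls for the opposite cell type. With a score of at least 15 the order turned round, with 220 ESC-only and 234 NEC-only calls. Replicates shared few calls as well: the ESC replicates had 12.7% of their union in common and the NEC replicates 11.0%, and pairs of libraries from different cell types had between 9.72% and 13.7%, so the shares within and between cell types overlapped. In the merged lists 40.9% of the ESC calls of silent baits were also NEC calls and 42.3% of the NEC calls were also ESC calls (5930 in all), and 25.2% and 24.6% of the merged calls were in neither replicate. With 2 libraries against 2 the smallest two-sided exact permutation p is 0.333, so no test was made.

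The numbers of PIRs per bait were compared in the same way. In 517 silent baits (13.5%) both ESC replicates had more PIRs than both NEC replicates, where 12.6% of all baits with a gene start did, and in 416 (10.8%) both NEC replicates had more, where 13.5% did. By family the directions differed. Silent olfactory receptor baits had 119 ESC-only and 49 NEC-only calls, and 63 of them had more PIRs in both ESC replicates and 16 in both NEC replicates, with NEC replicate 2 the lowest library. Keratin baits had 61 ESC-only and 23 NEC-only calls, epidermal differentiation baits 15 and 5, and taste receptor baits 8 and 0. The numbers were closer at HOX baits (27 and 18), cytokine baits (11 and 8) and LINC baits (4 and 4). Type I interferon baits had 1 and 2. Shares of all pairs were not calculated by family, so these counts cannot be set beside the shares over all baits. Histone baits had 12 ESC-only and 54 NEC-only calls. Without the 16 listed families, but with histone and regulator baits kept, silent baits had 829 ESC-only and 748 NEC-only calls.

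Among single baits, the most replicated ESC-only calls were at RP11-481C4.1, a noncoding gene inside SPAG9, with 13 against 1 NEC-only call, although 9 of the 13 were listed in the NEC merged list, which pools both replicates. It had 52 and 31 PIRs in the ESC libraries and 17 and 18 in the NEC libraries, which did not overlap, and SPAG9 itself had 2270 and 2655 reads in ESCs and 3941 and 4758 in NECs. IGSF6, an immunoglobulin superfamily gene inside METTL9, had 53 and 28 against 24 and 10, with 7 ESC-only calls, 5 of which lay over 1000 kb away. POM121L2 had 24 and 26 against 12 and 9, with 6. PPYR1 had 7, but its libraries overlapped (112 and 76 against 94 and 31). The largest NEC-only numbers were 17 at HIST1H4L and 9 at HIST1H1T. RP3-522P13.3, HIST1H2AB and the noncoding gene RP11-135A1.2 had 7 each. RP11-135A1.2 had 28 and 26 PIRs in the NEC libraries against 18 and 12 in the ESC libraries, and its bait was 4.89 kb from the start of HES1, a Notch target that had 367 and 348 reads in ESCs and 736 and 815 in NECs. RP3-522P13.3 had 28 and 23 against 36 and 32, without overlap.

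**Figure D5:**
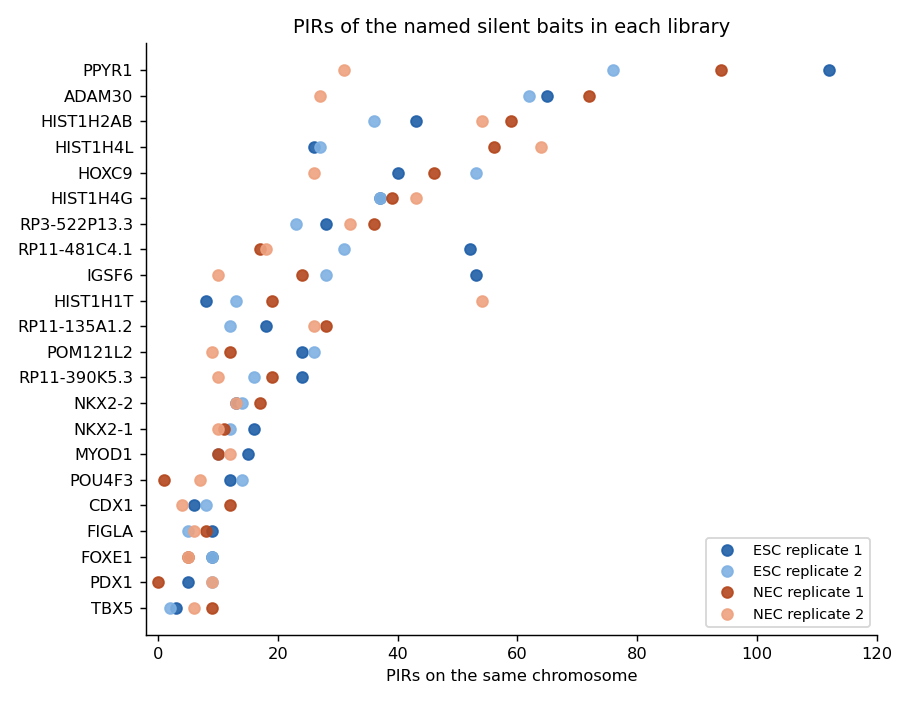
Same-chromosome PIRs (x axis) of the named silent baits (y axis, by gene), with 1 point for each ESC and NEC replicate. PPYR1 and ADAM30 reach 112 and 72 PIRs with NEC replicate 2 far lower (31 and 27), and HIST1H4L has its 2 NEC points (56 and 64) well above its 2 ESC points (26 and 27).

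The most connected and highest-scoring silent baits had very distant PIRs. PPYR1, at chromosome 10 (chr10:47081572-47089303), had 119 PIRs in the ESC merged list, the most of any silent bait, and 76 in the NEC merged list. Of these, 60 and 22 were more than 2 Mb away, and NEC replicate 2 had 4 such against 68, 40 and 46 in the other libraries. ADAM30, on the short arm of chromosome 1 (chr1:120431471-120440812), had 59 and 77 PIRs, with 65, 62, 72 and 27 in the single libraries, and 50 and 47 of the merged ones were more than 2 Mb away, at a median distance over all of 24565 and 24471 kb, across the centromere. ADAM30 also had the highest scores of any silent bait on its own chromosome: 64.4 in ESCs (37.44 in NECs) with chr1:145095231-145097411, and 65.34 in NECs (56.89 in ESCs) with chr1:145115011-145116060, 24.7 Mb away. Between these in ESCs, at 58.08 (15.27 in NECs), came a contact of AL035696.1, a noncoding gene near the end of chromosome 6, with a fragment of chromosome 12 (chr12:163168-166557). RP11-390K5.3, a noncoding gene inside C11orf49, had 52 and 37 PIRs, none beyond 2 Mb.

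Whether these distances hold in the genome depends on the assembly, and 2 measurements bear on it. Of the PIRs farther than 500 kb, 2 of 50 in ESCs and 0 of 47 in NECs at ADAM30 shared a word of 100 bases with the 500 kb on either side of the bait, and 3 of 91 and 1 of 45 did at PPYR1. The gene order differed between assemblies: 5 of the 57 distant PIRs of ADAM30 overlapped SEC22B, which has 9 protein-coding genes between it and ADAM30 in GRCh37, the build of the calls, and 1 in the newer GRCh38, and 46 overlapped PDE4DIP, with 8 and 56 between. For PPYR1, 5 of the 101 distant PIRs overlapped MSMB, with 29 and 2 genes between, and 21 overlapped FRMPD2, with 11 and 14. The gene sets of the assemblies are not the same, and the part of the assembly in these contacts was not tested.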

How the data were processed

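PCHi-C and RNA-seq data of H9 ESCs and NECs were used, with 2 biological replicates each; the conventional Hi-C samples were not used here. The authors aligned PCHi-C reads to GRCh37 with HiCUP and called contacts with CHiCAGO, and the deposited lists give a CHiCAGO score per pair of fragments, per replicate and for the replicates merged, all at 12 or more. Read pairs behind a call are not in these lists, so depth per pair is unknown. For RNA, the authors deposited raw read counts per gene, from poly(A)-selected, single-end libraries, trimmed, aligned with TopHat2 2.0.8b and counted in SeqMonk without regard to strand; the submitters' processing notes also name Bowtie 1.0.0 and hg19. RNA totals were 19234087 and 25356382 in ESCs and 20793224 and 24323762 in NECs. ESC and NEC libraries lay in separate lanes.

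Baits were the odd-numbered lines of any list. Genes were placed by their start and strand. The limit of 3 counts, the members and the gene lists were chosen with earlier results of these data known. CPM was calculated here from the counts. Distances run between fragment midpoints. CpG and TATAAA were read from GRCh37, from 250 bases before to 50 from the start on; gene names for the newer assembly came from RefSeq, GRCh38.p14. Libraries were compared by the two-sided exact permutation test by sign changes, since a bait is not a replicate; calculations were tested on simulated data. Named baits were the 5 with the most PIRs in each merged list, the 5 with the most replicated ESC-only, NEC-only and shared calls, the 3 top scores per merged list, silent listed regulators (8 in detail; not all are reported here) and the leading bait of each family with 10 or more silent baits. GSX1, VAX2, SMUG1 and other partners were chosen after their values were seen. Alternatives were a score of at least 15, limits of 0 and 10 counts, coding baits, baits with 1 gene, mid-length baits, exclusion of genes of small RNA types, matching PIRs within 10 kb, the lower gene coordinate as the start, a window of 1000 bases, pairs of baits counted once, baits without a PIR counted as 0, partners beyond 500 kb, comparison with baits at 1 CPM or more, and leaving out each library. Added after seeing the data were leaving out listed families, histone baits, HOX and histone baits together, baits inside expressed genes or the bait with the most interchromosomal calls, mean PIRs over all baits, and CpG in the 1000-base window for contact numbers. Python 3.11.15, numpy 2.4.6, pandas 2.3.3, scipy 1.17.1 and matplotlib 3.10.9 were used.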

Additional observations from a re-analysis of the deposited data

Results flagged for a closer look

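Contacts between chromosomes lie outside the comparisons above. In the merged ESC calls 51 calls of silent baits (0.351%) joined different chromosomes, against 0.236% of the calls of other baits, and in the merged NEC calls 37 did (0.263% against 0.198%). They are given because such calls were present at all, with no control samples to set them against, which does not show that they are real contacts. The bait of RP3-368B9.1, on chromosome 4, gave 26 of the 51 and 12 of the 37. Without it the silent shares in the merged lists were 0.172% and 0.178%, below those of other baits, from which no bait was taken out. In single libraries without it they were below in ESCs (0.555% against 0.639%, 0.684% against 0.730%) and above in NECs (0.748% against 0.618%, 0.813% against 0.768%). All 4 single libraries shared 4 such pairs: OTOL1, on chromosome 3, with chromosome 4 (merged scores of 38.77 in ESCs and 29.31 in NECs), RP3-368B9.1 with neighbouring fragments of chromosome 9 (24.54 and 16.98, and 24.54 and 40.98), and AL035696.1, on chromosome 6, with chromosome 12 (15.02 and 21.05). A further 8 pairs were in both ESC replicates and neither NEC replicate and 1 was the reverse. The part of sequence shared between these chromosomes was not tested.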

How the results depend on the processing

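Of 260 recomputed values, 195 stayed within the limits set for them and 65 moved. A change of sign was possible only for the 74 differences between silent and other baits, whose limit was their sign alone. All 74 recomputed differences between silent and other baits kept their direction, with the silent-partner difference between 10.5 and 29.8 percentage points, the distance difference between 61.5 and 113 kb, the difference in the share with a PIR between -5.38 and -0.440 points, and that in median PIRs between -1 and -0.25. The number of silent baits was 2229 with a limit of 0 counts. The share of ESC calls also called in NECs was 43.6% at a score of at least 15, 40.01% with 0 counts, 41.8% with 10 or fewer counts, 39.5% at coding baits, 41.7% at mid-length baits and 60.7% where PIRs within 10 kb counted as shared, and leaving out single libraries gave 25.4% to 41.1%. The share of NEC calls also called in ESCs was 40.8%, 43.2%, 43.2% and 61.7% with 0 counts, at coding baits, at mid-length baits and within 10 kb, and 26.2% to 42.5% without single libraries. The values near 25% came from leaving out a PCHi-C replicate, which sets a single library in place of the merged list. ESC-only calls numbered 220 at a score of at least 15, 623 with 0 counts, 655 at coding and 602 at mid-length baits, and NEC-only calls 234, 473, 407 and 467. Without single libraries ESC-only calls ran from 1142 to 11001 and NEC-only calls from 893 to 11190, where the high ends are without ESC replicate 2 and NEC replicate 2 of PCHi-C, as a call then needs 1 replicate only. No paired analysis was possible because the ESC and NEC values at silent baits come from no test, 2 libraries against 2 being too few, and the labels do not tie equal replicate numbers to each other. Calls carry no read numbers, so a contact missing from a list was not detected there and is not shown to be absent. Replicates shared few calls. The exact permutation test by sign changes gave p = 0.125 wherever all 4 libraries had the same sign, whatever the size or spread of the difference. It covers these 4 libraries only.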
